A study of Mus musculus with 20 samples.

Results

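Dazl-positive pluripotent cells are cells of the late libraries of XEN-to-iPS reprogramming that hold RNA of Pou5f1 (Oct4) together with RNA of Dazl, an RNA-binding protein of germ cells. They were chosen by a rule on counts of unique molecules (UMIs): 500 or more detected genes, 2 or more Pou5f1 UMIs, 1 or more Dazl UMI and under 5 UMIs of the fibroblast collagens Col1a1, Col1a2 and Col3a1 together, in the day 28 and XEN-iPS libraries. This gave 1531 cells among the 18706 cells with 500 or more genes of these 4 libraries and among 134279 cells in the whole series. The same rule without a Dazl UMI gave 6130 cells, which served as the Dazl-negative comparison. Dazl, Pou5f1 and the collagens were used to select the cells, so their levels are descriptions.

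The day 28 and XEN-iPS libraries came from 3F-4 XEN cells, an extraembryonic endoderm line that carried R26M2rtTA/M2rtTA, Oct4-GFPTg/Tg and Col1A1TetO-OKSmCh/TetO-OKSmCh, that is, a doxycycline-inducible cassette of Oct4, Klf4 and Sox2 with mCherry and a GFP reporter of Oct4. Day 28 cells had been kept on mouse embryonic fibroblast feeders in serum and LIF with doxycycline, ascorbic acid and an inhibitor of GSK3β. The library was put together from about equal numbers of 4 fractions sorted on SSEA-1 and Oct4-GFP, so a share of cells is not that of the culture. Day 7 and day 14 libraries were sorted and pooled in the same way, with the same limit on shares. Starting XEN cells had been kept on feeders in this medium without doxycycline. XEN-iPS cells were sorted as SSEA-1+ Oct4-GFP+ PDGFRα- cells and then grown on feeders in serum and LIF without doxycycline or the other additions. In the ES-to-iXEN direction the iGata4-Gata6-Venus ES line, which carried Gata6H2B-Venus/+, R26M2rtTA/+ and an inducible Gata4 (Col1A1TetO-Gata4/+), made as a fusion with mCherry, was sampled at 0h (ES), 9h, 24h and 48h of doxycycline and as iXEN. The 9h cells were also sorted and pooled, so their shares are not those of the culture, while 24h and 48h cells were not sorted. iXEN cells were collected after doxycycline had been withdrawn. Total UMIs of the 4 libraries ran from 67363081 to 112109377. All 20 libraries are 10x 3′ single-cell RNA-seq, 2 per condition described as technical duplicates of 1 line, although the XEN-iPS pair differed in Y-linked RNA. The counts cannot tell transcripts of the cassette from those of endogenous Pou5f1, Klf4 and Sox2.

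Dazl binds the 3′ ends of its target mRNAs and promotes their translation in germ cells, where it is needed for gametes to form. In somatic cells its promoter is kept silent by DNA methylation and by repressive complexes that bind germline promoters, and genes under this control are read out when methylation is low, as in primordial germ cells. Cultured pluripotent cells can transcribe some germline genes without being germ cells. Rhox13 is a homeobox gene of the X-linked Rhox cluster that is active in germ cells, Dppa3 (Stella) is a marker of primordial germ cells and naive pluripotent cells, and Utf1 is a chromatin factor of pluripotent cells and spermatogonia.

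The promoter windows of 4 genes on which the results turn are shown with their CpG dinucleotides, the sites of DNA methylation. Each window runs from 250 bases before to 50 bases after a RefSeq start site of the gene (GRCm38.p6, the first listed where there are several), is written 5′ to 3′ on the gene's strand, and has every CpG in capitals. They are the windows of Dazl (chr17:50293571-50293870, minus strand, 28 CpGs), Sycp1, which encodes a protein of the synaptonemal complex (chr3:102936051-102936350, minus strand, 21 CpGs), Fthl17e, a germline member of the ferritin heavy chain family (chrX:9033236-9033535, plus strand, 8 CpGs), and Rhox13 (chrX:38120590-38120889, plus strand, 5 CpGs).
Dazl: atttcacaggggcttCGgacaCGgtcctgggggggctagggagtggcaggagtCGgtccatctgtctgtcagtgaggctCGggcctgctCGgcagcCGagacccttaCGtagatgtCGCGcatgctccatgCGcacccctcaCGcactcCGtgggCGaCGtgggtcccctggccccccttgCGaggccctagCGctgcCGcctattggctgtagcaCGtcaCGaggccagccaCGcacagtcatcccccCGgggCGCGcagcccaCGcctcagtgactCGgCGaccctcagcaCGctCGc
Sycp1: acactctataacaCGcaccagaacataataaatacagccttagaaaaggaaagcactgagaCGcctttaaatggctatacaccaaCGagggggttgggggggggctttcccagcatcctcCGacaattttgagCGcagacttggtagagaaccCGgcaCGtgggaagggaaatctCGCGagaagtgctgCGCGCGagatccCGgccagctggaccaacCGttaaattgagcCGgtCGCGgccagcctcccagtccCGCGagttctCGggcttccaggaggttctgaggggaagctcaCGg
Fthl17e: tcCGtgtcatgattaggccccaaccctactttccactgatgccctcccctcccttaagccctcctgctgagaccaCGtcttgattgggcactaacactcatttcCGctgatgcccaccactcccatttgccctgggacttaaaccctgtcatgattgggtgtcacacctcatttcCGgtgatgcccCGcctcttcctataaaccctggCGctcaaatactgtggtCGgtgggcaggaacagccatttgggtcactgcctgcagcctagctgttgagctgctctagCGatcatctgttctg
Rhox13: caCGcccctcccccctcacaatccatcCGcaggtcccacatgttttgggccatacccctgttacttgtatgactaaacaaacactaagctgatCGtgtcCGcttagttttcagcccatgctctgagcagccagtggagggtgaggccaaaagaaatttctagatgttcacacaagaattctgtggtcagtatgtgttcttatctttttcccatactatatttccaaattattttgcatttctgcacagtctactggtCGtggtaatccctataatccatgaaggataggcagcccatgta

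Dazl thus has a CpG-dense window and Rhox13 a CpG-poor one, against a median of 7.0 CpGs over 27025 RefSeq windows of this length and 21.0 over the windows of the 9526 tested genes that have one. The median was 16 over 50 windows of tested germline genes and 13 over those of the 7 that rose. Neither the E-box CACGTG nor the E2F motif GCGGGAA (searched on both strands, with no overlap between them) occurs in the Dazl, Rhox13 or Fthl17e window, which says only that these letters are not in these windows. The Sycp1 window holds 1 CACGTG. Of all windows, 4.66% hold GCGGGAA and 7.24% hold CACGTG. The shares are 9.05% and 10.5% for tested genes, 26.0% and 26.0% for tested germline genes, and 14.3% and 14.3% for the 7 that rose. These differences were not tested.

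Dazl-positive cells were unevenly spread over the 4 libraries. Of the Pou5f1 cells, 646 of 1585 (40.8%) in day 28 replicate 1, 289 of 722 (40.0%) in day 28 replicate 2, 542 of 2662 (20.4%) in XEN-iPS replicate 1 and 54 of 2692 (2.01%) in XEN-iPS replicate 2 had a Dazl UMI. The exact 95% binomial intervals, which cover counting error only, were 38.3 to 43.2%, 36.4 to 43.7%, 18.8 to 21.9% and 1.51 to 2.61%. With all UMIs the intervals of the day 28 libraries overlapped, and the XEN-iPS libraries differed by far more than counting error. Cells of the libraries differed in depth, so each cell was also thinned to 5000 UMIs. The share was then 15.8%, 9.77%, 6.87% and 0.568%, with both day 28 libraries above both XEN-iPS libraries. The intervals were 14.0 to 17.7%, 7.68 to 12.2%, 5.93 to 7.91% and 0.318 to 0.935%, so at this depth the day 28 libraries also differed beyond counting error, and day 28 replicate 2 overlapped XEN-iPS replicate 1. With 2 libraries against 2, an exact two-sided permutation test cannot give a p below 0.33, so the order of the conditions was not tested.

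**Figure D1:**
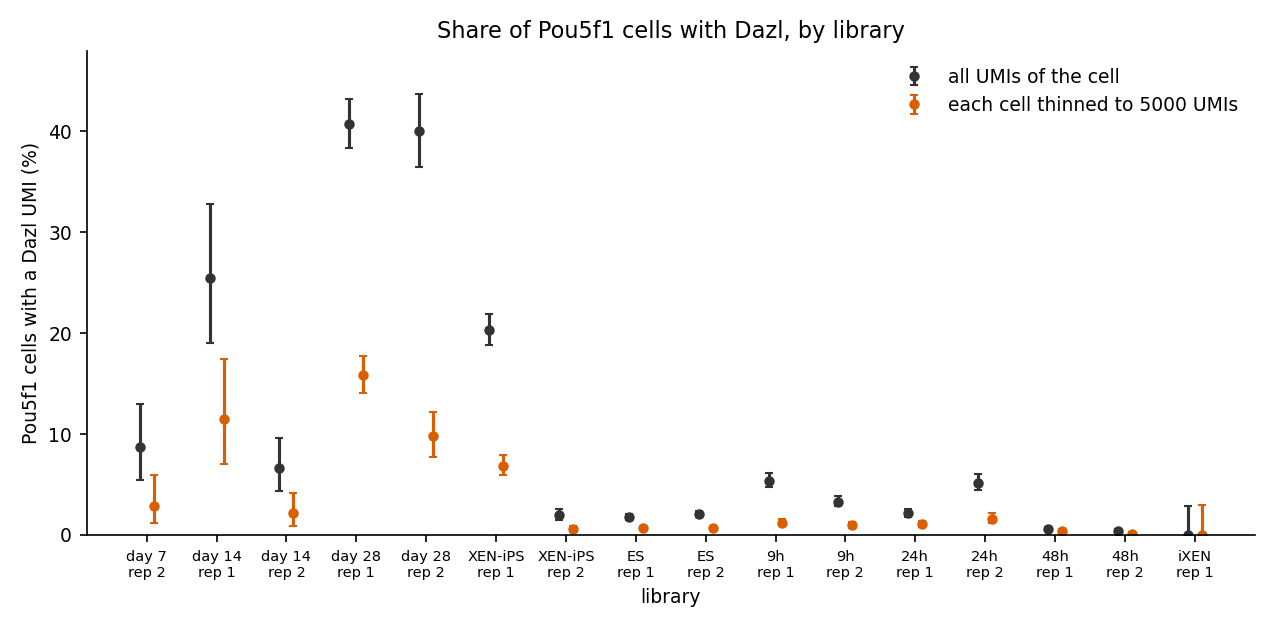
Share of Pou5f1 cells with a Dazl UMI (y axis, percent) in each library with at least 20 Pou5f1 cells (x axis), with all UMIs (dark points) and after thinning each cell to 5000 UMIs (orange points). Bars are exact 95% binomial intervals. With all UMIs day 28 replicates 1 and 2 stand highest at 40.8% and 40.0%, after thinning day 14 replicate 1 (11.5%) lies between them (15.8% and 9.77%), and XEN-iPS replicate 2, at 2.01%, lies at the level of the ES libraries (1.78% and 2.05%).

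Earlier in reprogramming Dazl-positive cells were few in number. Day 7 replicate 2 held 21 of 241 Pou5f1 cells (8.71%), day 14 replicate 1 held 42 of 165 (25.5%) and day 14 replicate 2 held 25 of 378 (6.61%), while day 7 replicate 1 had 9 Pou5f1 cells and none with Dazl. XEN libraries before induction had at most 1 Pou5f1 cell. From ES to 48h of the Gata4 line the share was between 0.381% (48h replicate 2) and 5.39% (9h replicate 1), and 0 of 128 Pou5f1 cells of iXEN replicate 1 had Dazl, which allows a share of up to 2.34% at a floor of 3 counts. Thinned to 5000 UMIs, the libraries from ES to 48h lay between 0.130% and 1.61%, below day 28 and XEN-iPS replicate 1. The thinned share was 2.92% in day 7 replicate 2, 11.5% in day 14 replicate 1 (19 of 165 cells, interval 7.08 to 17.4%) and 2.14% in day 14 replicate 2, so that of day 14 replicate 1 lay in the range of the day 28 libraries.

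Free RNA can give UMIs in cells that do not express a gene, so the same share was taken in cells that should lack Dazl. Endoderm cells were defined as cells without Pou5f1 and with 3 or more UMIs of Gata4, Gata6, Sox17, Sox7, Pdgfra and Dab2. In day 28 their share with a Dazl UMI was 3.09% (median depth 16653 UMIs) and 2.48% (26856 UMIs), against 40.8% and 40.0% in Pou5f1 cells. In XEN-iPS it was 1.98% of 101 cells and 0 of 175 cells, which allows a share of up to 1.71% at a floor of 3 counts. In the XEN libraries it was 0.186% and 0.0756%. Thinned to 5000 UMIs, the endoderm share of day 28 was 1.17% and 0.666%, while the Pou5f1 cells of these libraries were at 15.8% and 9.77%. Over all cells without a Pou5f1 UMI the share was 3.66% and 3.85% in day 28, 5.95% in XEN-iPS replicate 1 (median depth 5973 UMIs) and 0.113% in XEN-iPS replicate 2 (5223 UMIs). In XEN-iPS replicate 1 this lay near the 6.87% of Pou5f1 cells thinned to a like depth. At that depth only 70.9% of its matched Dazl-positive and 69.4% of its matched Dazl-negative Pou5f1 cells kept a Pou5f1 UMI. Cells without one can thus be pluripotent cells, and their share does not measure free RNA alone. The endoderm cells stood at 1.12% after thinning, a share of few cells whose difference from the Pou5f1 cells was not tested.

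Day 28 cells held more Dazl UMIs per positive cell than XEN-iPS cells, and the libraries also differed in depth. In day 28 replicate 1, 247 cells had 1 UMI, 99 had 2, 175 had 3 to 5, 77 had 6 to 10 and 48 had more than 10, with a highest value of 41. In day 28 replicate 2 the same counts were 107, 60, 75, 27 and 20, with a highest value of 36. In XEN-iPS replicate 1, 376 of 542 cells had 1 UMI and the highest value was 8. In XEN-iPS replicate 2, 52 of 54 cells had 1 UMI and the other two had 2. Single-UMI cells thus made up 38.2%, 37.0%, 69.4% and 96.3% of the positive cells. The positive cells of the 4 libraries had median depths of 34230, 57092, 23970 and 15691 UMIs, in the same order. Summed over the positive cells and scaled to their summed UMIs, the Dazl level was 109, 63.7, 61.4 and 63.4 CPM (UMIs scaled to a common total). The rule sets a floor under these values, since each cell holds at least 1 Dazl UMI whatever its depth. Over all Pou5f1 cells, with or without Dazl, the level was 55.2, 31.6, 14.6 and 1.28 CPM.

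The limits of the rule cut through few cells at the collagen and gene limits and more at the UMI limits. Just inside, 84, 16, 84 and 6 positive cells had exactly 2 Pou5f1 UMIs, and no positive cell had under 600 genes. Just outside, 97, 24, 62 and 0 cells with Dazl had 1 Pou5f1 UMI, and 0, 1, 0 and 3 Pou5f1 cells with Dazl were left out for 5 or more collagen UMIs.

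XEN-iPS replicate 2 stood apart from the other libraries in more than Dazl. In its Pou5f1 cells, 59.8% had a UMI of a Y-linked gene, at 62.1 CPM, against 1.01% and 0.625 CPM in XEN-iPS replicate 1 and at most 0.252% and 0.0892 CPM in day 28. It also held 856 cells with 20 or more collagen UMIs, against 32 in XEN-iPS replicate 1. Whether the 2 XEN-iPS libraries came from the same clone or passage is not given in the sources used here, so they may not be duplicates of the same cells, and each fit that pairs or pools them holds within that limit. The starting XEN libraries had Y-linked UMIs in 26.2% and 26.0% of cells. Within XEN-iPS replicate 2 the Y-linked level was 62.3 CPM in Dazl-positive and 69.1 CPM in matched Dazl-negative cells. In the ES libraries it was at most 0.307 CPM. Its part in the difference between the XEN-iPS libraries was not tested. Of the named genes called in the Dazl comparison, 21 lost their call without this library. The 4 libraries shared between 21 and 85 cell barcodes pairwise, and no barcode was shared between Dazl-positive cells.

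To ask how Dazl-positive cells differ from other Pou5f1 cells, each was matched to an unused Dazl-negative cell of its library within 0.05 in log10 total UMIs. Positive cells without such a match were left out. This gave 523, 239, 542 and 54 pairs from 646, 289, 542 and 54 positive cells. The median depths of positive and negative cells were then 30670 and 28179, 52099 and 48552, 23970 and 23974, and 15691 and 15688.5 UMIs. Mitochondrial RNA made up 3.05, 3.04, 2.05 and 1.22% of the UMIs of positive and 3.34, 3.27, 2.02 and 1.23% of those of negative cells. The sum of 6 endoderm genes (Gata4, Gata6, Sox17, Sox7, Pdgfra and Dab2) was 174, 134, 3.66 and 0 CPM against 417, 400.3, 7.55 and 3.40 CPM, so the matched classes of day 28 differed in endoderm RNA. UMIs were summed per library and class, since cells are not replicates, and compared with edgeR's quasi-likelihood test with the library as a block. Of 12447 genes tested, 89 rose (0.715%) and 309 fell (2.48%) in Dazl-positive cells at an adjusted p under 0.05. Without depth matching 7 rose and 93 fell, and with up to 3 matched cells 18 rose and 110 fell. Of those that rose, 67 were higher in all 4 libraries, and 209 of those that fell were higher in none. A gene with no UMI in either class of a library counted as not higher there. Over all genes tested 8.01% were higher in all 4 libraries and 12.8% in none, with such ties among the latter. The median log2 fold change over all tested genes was 0.01. Genes that the naming rule did not give, among them Ddx4, Sycp3, Mael, Xist, Nanog, Zfp42, Stra8, Dnmt3b, Tet1, E2f6, Prdm1, Nanos3, Rhox2a, Fthl17f, Nelfa, Atf4, Ddit3 and Mt1, were chosen for display after their values were seen. The number of called genes turned on single libraries: it was 40 without day 28 replicate 1, 55 without day 28 replicate 2, 201 without XEN-iPS replicate 2 and 2560 without XEN-iPS replicate 1, against 398 with all 4. Levels below are CPM of the sums, given for day 28 replicates 1 and 2 and XEN-iPS replicates 1 and 2 in this order.

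The markers that name these cells were given together with the rule and are described without a test. Rhox13 stood at 40.8, 57.7, 18.1 and 3.40 CPM in Dazl-positive and 14.1, 19.7, 13.8 and 4.53 CPM in Dazl-negative cells. Dppa3 stood at 152, 142, 165 and 154 CPM against 57.3, 45.9, 159 and 128 CPM. Utf1 stood at 376, 273, 365 and 300.1 CPM against 251, 192, 389 and 319 CPM. All 3 markers were thus higher with Dazl in both day 28 libraries. In XEN-iPS, Dppa3 was near equal in replicate 1, Utf1 was slightly lower with Dazl in both libraries, and Rhox13 was lower with Dazl in replicate 2. Dazl itself was at 109, 61.5, 61.4 and 63.4 CPM in the positive sums. Since these markers came with the rule, their levels at day 28 cannot test the label of a pluripotent cell. Before matching, 31.7% and 32.2% of the Dazl-positive cells of day 28 also held 3 or more UMIs of the endoderm genes summed above. Among the Dazl-negative cells these shares were 69.5% and 71.1%. In XEN-iPS Dppa3 and Utf1 did not set the Dazl-positive cells apart. Most positive cells there held a single Dazl UMI, so this cannot tell whether the day 28 differences recur in XEN-iPS.

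Of the germline genes 7 rose with Dazl, 6 of which did not pass the test when either day 28 library was left out. The list held 70 genes of meiosis, the piRNA pathway and germline-restricted families, of which 55 were tested. Of these, 7 rose and 1 fell, where 0.715% of all tested genes rose and 2.48% fell. Their median log2 fold change was 0.45 against 0.01 over all genes. Fthl17e was at 17.8, 18.3, 6.65 and 1.13 CPM in Dazl-positive and 5.33, 2.72, 2.35 and 0 CPM in Dazl-negative cells. It was higher in all 4 libraries (log2 fold change 2.02 ± 0.23 SE, adjusted p = 0.00133). Sycp1 was at 18.7, 16.2, 10.2 and 4.53 CPM against 5.20, 4.69, 7.55 and 1.13 CPM (1.38 ± 0.24, adjusted p = 0.0127). Sohlh2, a transcription factor of early germ cell differentiation, was at 21.4, 21.8, 3.14 and 22.7 CPM against 6.89, 8.32, 2.42 and 20.4 CPM (1.17 ± 0.22, adjusted p = 0.0164). In each of these genes the difference was wider at day 28 than in XEN-iPS replicate 1. Fthl17e passed the test whichever of the 4 libraries was left out, Sycp1 did not without day 28 replicate 1 (adjusted p = 0.217) or day 28 replicate 2 (adjusted p = 0.0697), and Sohlh2 did not without either of them (adjusted p = 0.396 and 0.142). Without depth matching, Fthl17e alone of the 7 passed the test (adjusted p = 0.0162).

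Gtsf1, a factor of the piRNA pathway, was at 24.5, 24.4, 6.80 and 0 CPM against 7.87, 8.81, 5.28 and 2.27 CPM, and its log2 fold change was 1.21 ± 0.24 (adjusted p = 0.0214), but XEN-iPS replicate 2 went the other way. The other genes of the list that rose were Tex19.1, Tuba3a and Xlr3c, and the one that fell was Dpep3. Dpep3 lost its call without day 28 replicate 1 (adjusted p = 0.683), day 28 replicate 2 (adjusted p = 0.610) or XEN-iPS replicate 2 (adjusted p = 0.0833). It also did so without depth matching (adjusted p = 0.117). Tex19.1, which limits retrotransposons in germ and pluripotent cells and also stands in the naive list and among reported Dazl targets, was at 96.0, 57.1, 105 and 46.4 CPM against 60.9, 38.5, 93.6 and 38.5 CPM (0.46 ± 0.11, adjusted p = 0.0458). Gtsf1, Tex19.1, Tuba3a and Xlr3c lost their calls without day 28 replicate 1 or without day 28 replicate 2, with adjusted p of 0.482 and 0.182 for Gtsf1, 0.603 and 0.370 for Tex19.1, 0.279 and 0.370 for Tuba3a and 0.415 and 0.461 for Xlr3c. Without XEN-iPS replicate 2, Tex19.1 (adjusted p = 0.0880), Tuba3a (adjusted p = 0.0820) and Xlr3c (adjusted p = 0.0650) did not pass it either. Genes often taken as signs of later germ cells did not pass the test. Ddx4 (Vasa) was at 0.964, 1.31, 1.24 and 1.13 CPM against 0.520, 0.823, 1.25 and 0 CPM, and its log2 fold change was 0.52 (adjusted p = 0.470). Sycp3 was at 11.5, 10.6, 4.17 and 1.13 CPM against 15, 7.90, 5.06 and 1.13 CPM (log2 fold change -0.07, adjusted p = 0.882). Mael was at 3.62, 5.55, 9.51 and 1.13 CPM against 2.67, 2.14, 7.41 and 4.53 CPM (adjusted p = 0.207). Germline RNA in these cells was thus a part of the germline set, led by Fthl17e and Sycp1, and the sums of Ddx4 stayed low.

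Among the 31 Rhox genes in the files, 11 were tested beside Rhox13. Within day 28, 5 of them rose and 2 fell, where 13.9% of all tested genes rose and 16.1% fell. The members of the cluster thus did not all go the same way. With all 4 libraries 1 rose, where 0.715% of all tested genes rose. This was Rhox1, at 20.8, 24.4, 20.4 and 4.53 CPM against 13.7, 13.5, 15.8 and 2.27 CPM (0.62 ± 0.14, adjusted p = 0.0367). It did not pass the test without day 28 replicate 1 (adjusted p = 0.478), day 28 replicate 2 (adjusted p = 0.474) or XEN-iPS replicate 2 (adjusted p = 0.0695), nor without depth matching (adjusted p = 0.163). Of the rising genes with a place in GENCODE vM21, 21 of 87 (24.1%) were on chromosome X, against 3.62% of tested genes and 10 of 304 falling genes. The summed X-linked RNA of a cell, as a median per 100 autosomal UMIs, was 3.19, 3.37, 3.41 and 3.60 in Dazl-positive and 3.22, 3.19, 3.38 and 3.36 in Dazl-negative cells. It was higher in positive cells in 3 of 4 libraries, and the difference was not tested. Xist, the RNA of the inactive X chromosome, was at 14.2, 11.3, 0.439 and 0 CPM against 21.4, 36.1, 0.440 and 0 CPM. It fell in Dazl-positive cells (-1.04 ± 0.24, adjusted p = 0.0427). Near-identical copies are frequent in the Fthl17, Xlr and Rhox families, so counts of single members are uncertain.

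The 10 called genes with the largest rise, at 20 CPM or more and in the same direction in all 4 libraries, were Gm2694, Rpl39l, Prps1, Crabp1, 2410141K09Rik, Cyct, Zfp992, 1700019B21RIK (spelled as in the files), Acp6 and Smtnl1. Rpl39l, a ribosomal protein paralogue of the male germ line, was at 126, 89.8, 45.3 and 178 CPM against 44.6, 52.7, 33.3 and 120.1 CPM (0.87 ± 0.15, adjusted p = 0.0104). Cyct, the cytochrome c of the testis, was at 120.5, 158, 135 and 98.5 CPM against 56.9, 78.2, 128 and 80.4 CPM (0.68 ± 0.16, adjusted p = 0.0393). Prps1, an X-linked enzyme of nucleotide synthesis, was at 80.3, 88.5, 101 and 109 CPM against 35.9, 44.9, 88.7 and 78.2 CPM (0.75 ± 0.15, adjusted p = 0.0210). Zfp992 was at 27.5, 52.5, 21.0 and 51.0 CPM against 13.3, 33.6, 15.7 and 40.8 CPM (0.68 ± 0.13, adjusted p = 0.0166). Across libraries the values of the classes overlapped in each of these genes, while within each library the positive sum was the higher one. Among the 4 omissions Rpl39l did not pass the test without day 28 replicate 1 (adjusted p = 0.0611), and the other three shown did not pass it without either day 28 library (adjusted p between 0.109 and 0.396). Prps1 and Cyct also did not pass it without XEN-iPS replicate 2 (adjusted p = 0.0676 and 0.0873). Of the 10 genes, Gm2694 (adjusted p = 0.103), Acp6 (adjusted p = 0.0747), Smtnl1 (adjusted p = 0.0696), 2410141K09Rik (adjusted p = 0.108) and Crabp1 (adjusted p = 0.104) did not pass it without that library either, nor did these 5 without either day 28 library (adjusted p between 0.145 and 0.519). 1700019B21RIK did not pass it without day 28 replicate 1 (adjusted p = 0.217) or replicate 2 (adjusted p = 0.308). Without depth matching Rpl39l alone of the 10 passed (adjusted p = 0.0475).

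Genes of extraembryonic endoderm fell with Dazl. Of 28 genes tested in the endoderm list, 0 rose and 21 fell, with a median log2 fold change of -1.17. Of all tested genes 0.715% rose and 2.48% fell. The transcription factor Sox17 was at 32.4, 25.5, 0.292 and 0 CPM in Dazl-positive and 77.5, 96.6, 1.32 and 0 CPM in Dazl-negative cells (-1.58 ± 0.16, adjusted p = 0.00124). Dab2, an endocytic adaptor of the endoderm, was at 70.9, 45.2, 1.39 and 0 CPM against 174, 140.1, 2.71 and 1.13 CPM (-1.39 ± 0.13, adjusted p = 0.000669). Gata4 was at 19.3, 16, 0.366 and 0 CPM against 44.7, 42.2, 0.367 and 0 CPM (-1.23 ± 0.17, adjusted p = 0.00405). For these regulators the difference was thus one of day 28, since their RNA was close to 0 in both classes of XEN-iPS. The 10 called genes that fell furthest, at 20 CPM or more and higher in no library, were Ttr, Ctsh, Aqp8, Fxyd3, Gkn2, Sox17, Krt18, Hs3st1, Pth1r and S100g. A tie at 0, as for Sox17 and S100g in XEN-iPS replicate 2, counted as not higher. Ttr (transthyretin) was at 28.7, 14.5, 0.219 and 0 CPM against 73.1, 73.6, 1.32 and 1.13 CPM (-1.83 ± 0.20, adjusted p = 0.00124). S100g, a calcium-binding protein, was at 299, 104, 1.61 and 0 CPM against 833, 345, 2.57 and 0 CPM (-1.49 ± 0.14, adjusted p = 0.000669).

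**Figure D2:**
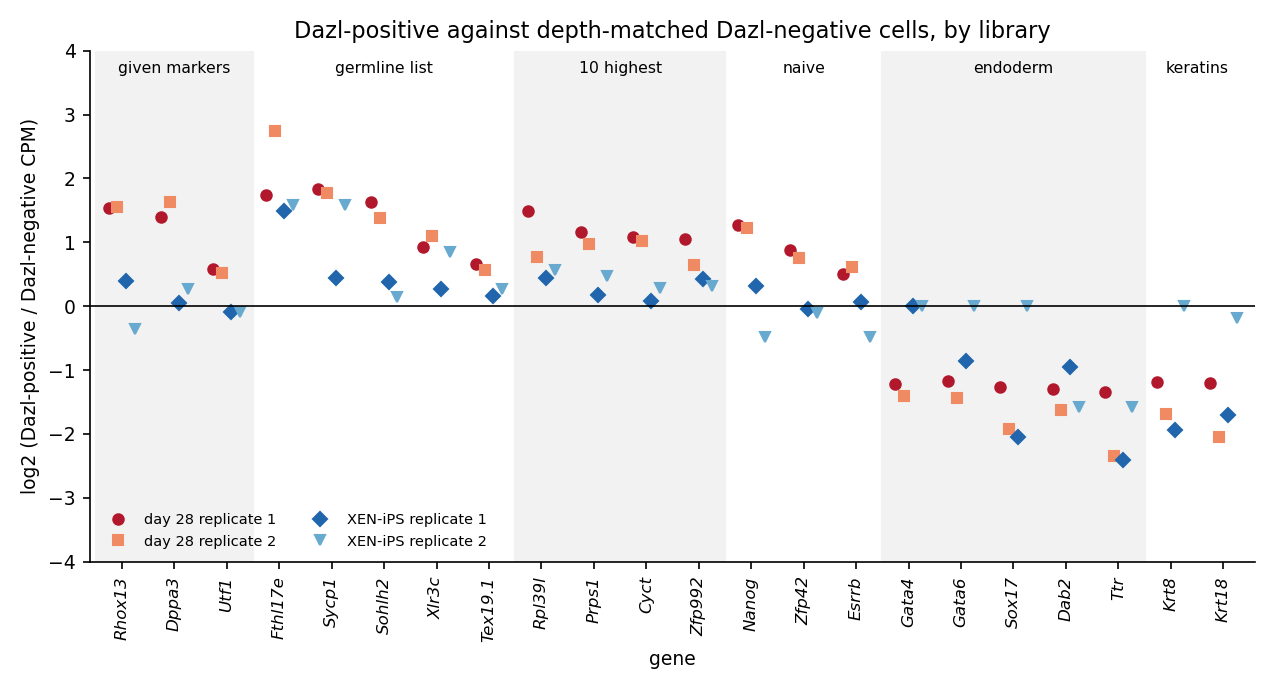
Log2 ratio of CPM in Dazl-positive over depth-matched Dazl-negative cells (y axis, 0.5 added to each sum) for genes of 6 groups (x axis), 1 symbol per library. Sycp1, Fthl17e and Rpl39l lie above 0 in all 4 libraries, Nanog and Zfp42 lie above 0 in both day 28 libraries, and Sox17 and Ttr lie at -1.26 or lower in day 28.

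Krt8 and Krt18, the keratins of simple epithelia that are also in the trophoblast list, fell within day 28 and within XEN-iPS, where the fall was that of replicate 1. Krt18 was at 69.6, 59.7, 7.24 and 7.93 CPM against 160.2, 245, 23.7 and 9.06 CPM (-1.58 ± 0.16, adjusted p = 0.000709). Its log2 fold change was -1.59 within day 28 (adjusted p = 1.1e-13) and -1.62 within XEN-iPS (adjusted p = 6.1e-05). Krt8 was at 75.0, 64.1, 2.05 and 1.13 CPM against 171, 206, 7.92 and 1.13 CPM (-1.49 ± 0.14, adjusted p = 0.000669). Within XEN-iPS these falls rested on few cells. After thinning, 2.96% of matched Dazl-positive and 5.19% of matched Dazl-negative cells of replicate 1 held Krt18, at means of 0.033 and 0.15 UMIs. For Krt8 the shares were 0.926% and 1.48%. In replicate 2 they were 3.77% and 0% for Krt18, and 0% and 1.89% for Krt8.

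Most genes of the pluripotency lists passed the test within day 28, and none did within XEN-iPS. In XEN-iPS 69.4% and 96.3% of the positive cells held a single Dazl UMI. The lack of calls there thus cannot tell whether the day 28 differences are absent. In the fit over all 4 libraries, where 0.715% of all tested genes rose, 1 of 14 tested core genes (Dppa2) and 1 of 22 naive genes (Tex19.1) rose. Within day 28, where the model called 1736 genes higher (13.9%) and 2002 lower (16.1%), 12 of 14 core genes and 16 of 22 naive genes rose, and 3 naive genes fell. Within XEN-iPS, where it called 17 higher (0.137%) and 3 lower (0.0241%), 0 genes of either list passed the test. Of the 55 tested germline genes, 30 rose and 2 fell within day 28 (median log2 fold change 0.64), and 0 passed the test within XEN-iPS (median 0.18). The genes that rose within XEN-iPS included Fthl17f (1.08, adjusted p = 0.0476) and Nelfa (0.69, adjusted p = 0.00420). Gm8300 and Gm5662 also did, but they reached the test mainly through their Dazl-positive sums. Those that fell were Krt18 and Krt8, whose UMIs there lay in few cells, and Mt1 (-0.47, adjusted p = 0.0460). Nanog was at 138, 122, 173 and 131 CPM against 57.0, 52.0, 138 and 185 CPM, with a log2 fold change of 1.28 within day 28 (adjusted p = 7.6e-13). Zfp42 (Rex1) was at 707, 668, 925 and 1434 CPM against 385, 397, 949 and 1546 CPM, with a log2 fold change of 0.84 within day 28 (adjusted p = 2.3e-11). Dppa2, a DNA-binding factor that also acts at germline promoters, was at 75.6, 52.4, 132 and 60.0 CPM against 54.0, 37.0, 101 and 49.8 CPM (0.45 ± 0.09, adjusted p = 0.0227). It did not pass the test without day 28 replicate 1 (adjusted p = 0.364), day 28 replicate 2 (adjusted p = 0.238) or XEN-iPS replicate 2 (adjusted p = 0.0523), nor without depth matching (adjusted p = 0.0989). The day 28 libraries rest on a pair of duplicates and 2 residual degrees of freedom in this model, whose p-values measure only the spread between technical duplicates.

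The difference between the conditions was itself tested, with the sign of each effect kept. Most positive cells of XEN-iPS held a single Dazl UMI, unlike those of day 28. A difference of effects cannot be told apart from this difference in detection. The Dazl effect of 554 genes was higher (4.45%) and that of 446 genes lower (3.58%) in XEN-iPS than in day 28, with adjusted p under 0.05. DESeq2 called 245 genes, and edgeR called 0 when no low counts were filtered out (2341 at an unadjusted p under 0.05). Of the 10 genes named for the largest rise, 6 had an effect that differed between the conditions, and of the 10 named for the largest fall, 1. In the germline list 13 of 55 genes, in the naive list 13 of 22 and in the core list 6 of 14 had a lower signed Dazl effect in XEN-iPS. A higher one was found for 0, 1 and 0 genes. Usp26, an X-linked deubiquitinase of the testis, had the lowest difference of effects among called genes of 20 CPM or more. It was at 62.3, 54.3, 32.6 and 106 CPM against 20.3, 19.6, 29.6 and 108 CPM, and the difference of its effects was -1.46 ± 0.16 (adjusted p = 4.0e-07). Stra8, which is needed to enter meiosis, was at 15.4, 5.40, 8.99 and 0 CPM against 4.75, 0.659, 9.46 and 11.3 CPM, with a difference of effects of -2.26 (adjusted p = 0.000182). Tubb3 (-1.34, adjusted p = 5.4e-05) and Jam2 (-1.34, adjusted p = 7.7e-06) were named by the same limits, and their signed effects were lower in XEN-iPS. Those of Acta2 (3.77, adjusted p = 0.000133), P4ha2 (2.11, adjusted p = 4.4e-06) and FAM134B (2.07, adjusted p = 0.00125) were higher. A higher signed effect need not be a larger one, and P4ha2 fell with Dazl within day 28. Acta2 stood at 1.08, 0.540, 6.14 and 71.4 CPM against 0.520, 33.3, 7.11 and 63.4 CPM, so its value rests on the Dazl-negative sum of day 28 replicate 2.

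At day 28 many Pou5f1 cells still held endoderm RNA, and Dazl was detected less often in those that did. Of the Dazl-negative cells 69.5% and 71.1% had 3 or more UMIs of the 6 endoderm genes, and of the Dazl-positive cells 31.7% and 32.2%. In XEN-iPS these shares were at most 0.991% in either class. In day 28 cells thinned to 5000 UMIs, Dazl was detected in 22.7% and 16.3% of cells with 0 endoderm UMIs. It was detected in 17.7% and 9.76% of cells with 1, in 9.48% and 2.55% of those with 2 to 4, and in 6.12% and 2.08% of those with 5 or more. Among day 28 cells with 2 or more Zfp42 UMIs and under 3 endoderm UMIs, 432 of 697 (62.0%) and 193 of 304 (63.5%) had Dazl, without thinning.

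**Figure D3:**
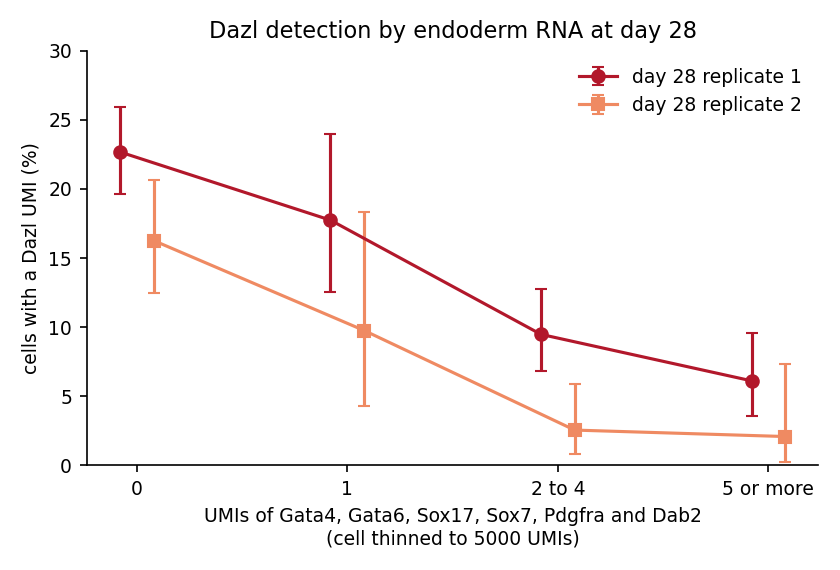
Share of day 28 Pou5f1 cells with a Dazl UMI (y axis, percent) by the number of UMIs of 6 endoderm genes in the cell (x axis), after thinning each cell to 5000 UMIs. Lines are the 2 libraries and bars exact 95% binomial intervals. The share falls from 22.7% to 6.12% in replicate 1 and from 16.3% to 2.08% in replicate 2.

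The comparison was therefore repeated without cells that held 3 or more endoderm UMIs, in both classes. Of 10994 genes tested, 69 rose (0.628%) and 36 fell (0.327%). Of the 89 genes that rose with all cells, 48 rose here too, and of the 309 that fell, 17 did. Fthl17e (1.52 ± 0.18, adjusted p = 2.1e-07), Sycp1 (1.20 ± 0.17, adjusted p = 1.2e-05), Rpl39l (0.73 ± 0.09, adjusted p = 2.3e-07), Gtsf1 (0.95 ± 0.15, adjusted p = 6.9e-05), Sohlh2 (0.78 ± 0.14, adjusted p = 0.000881), Rhox1 (0.55 ± 0.12, adjusted p = 0.00923) and Tex19.1 (0.44 ± 0.08, adjusted p = 0.00124) rose in both. In the germline list 8 of 50 tested genes rose and 0 fell. Nanog (0.34, adjusted p = 0.0153) and Usp26 (0.57, adjusted p = 0.000730) passed the test here but not in the fit of all cells, and so did Rhox2a (1.38, adjusted p = 3.8e-05), another gene of the Rhox cluster. Dab2 is one of the 6 genes that chose the cells left out, so its value here is set by that choice. The endoderm genes Ttr (0.34, adjusted p = 0.785) and Dab2 (-0.01, adjusted p = 0.997) did not pass it, nor did Krt8 (-0.58, adjusted p = 0.0742), whereas Krt18 fell here too (-0.99, adjusted p = 2.1e-05) and so did 3 of 21 tested endoderm genes, Srgn, Apoe and Serpinh1. Genes that fell here and not in the fit of all cells included Atf4 (-0.38, adjusted p = 0.000730) and Ddit3 (-0.51, adjusted p = 0.0121), transcription factors of the stress response, and the metallothionein Mt1 (-0.38, adjusted p = 7.7e-05). Of 66 rising genes with a place in the annotation, 19 were on chromosome X (28.8%). A stricter version, with only cells that also had 2 or more Zfp42 UMIs, gave 58 rising (0.53%) and 35 falling genes (0.32%) of 10950 tested, and 44 of the 89 genes that rose with all cells rose there.

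**Figure D4:**
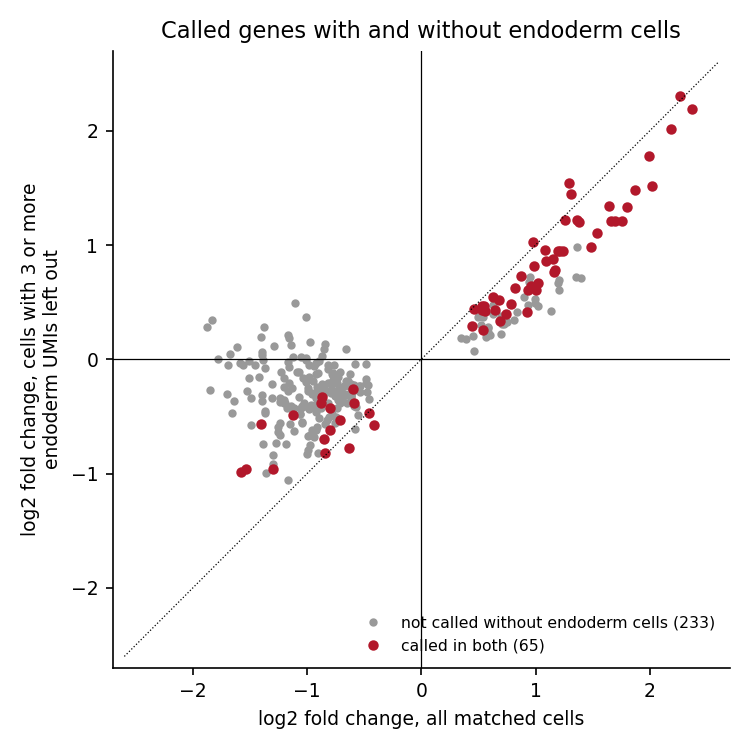
Log2 fold change of Dazl-positive against Dazl-negative cells with all matched cells (x axis) and without cells of 3 or more endoderm UMIs (y axis), for the 298 called genes tested in both. Red points (65) were called in both fits and grey points (233) only with all cells. Both rising genes (median 0.94 with all cells and 0.55 without the endoderm cells) and falling genes (median -0.94 and -0.30) lie closer to 0 on the y axis than the dotted line of equality at the median, the falling genes more so. The genes were picked by their calls on the x axis and the cells left out by their endoderm RNA. Such a shift is favoured by these choices and was not tested.

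Genes of the 2-cell-like state, a rare state of cultured pluripotent cells that transcribes genes of the 2-cell embryo, had counts mostly in XEN-iPS. Only 2 of the 24 listed genes in the files had enough counts to be tested, and they do not stand for the list. Both reached the test mainly through their Dazl-positive sums, so their adjusted p give no support for a rise. Gm8300 was at 2.41, 0.231, 66.0 and 28.3 CPM in Dazl-positive and 0.260, 0.0823, 21.7 and 0 CPM in Dazl-negative cells (1.99 ± 0.32, adjusted p = 0.00769). Gm5662 was at 0.964, 0.848, 38.5 and 10.2 CPM against 0.0650, 0, 10.6 and 0 CPM (2.19 ± 0.34, adjusted p = 0.00616). Neither passed the test against all Dazl-negative cells without matching (adjusted p = 0.390 and 0.361). Reads of close copies of these genes may be shared. Zscan4 genes, which mark the state, had no UMI in the matched cells of day 28 and were at 84.7 and 40.8 CPM in Dazl-positive against 13.9 and 0 CPM in Dazl-negative cells of XEN-iPS. In XEN-iPS replicate 1, 52 of 542 Dazl-positive cells (9.59%, interval 7.25 to 12.4%) and 34 of 542 matched Dazl-negative cells had a Zscan4 UMI. Thinned to 5000 UMIs, 36 of 540 (6.67%, 4.71 to 9.11%) and 12 of 540 (2.22%, 1.15 to 3.85%) had one. In XEN-iPS replicate 2 this rested on 1 positive cell of 54. Without cells of 3 or more Zscan4 UMIs, Gm5662 no longer passed the test (1.44, adjusted p = 0.224). The Zscan4-positive Pou5f1 cells of XEN-iPS replicate 1 numbered 186, and 52 of them (28.0%) had Dazl, against 19.8% of the rest at a like depth (medians of 20181 and 20681.5 UMIs).

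The next 4 lists held 0 called genes with all cells, where 0.715% of all genes rose and 2.48% fell, so 0 of about 20 genes is near the share of all genes. Of 19 tested DNA methylation enzymes, 26 repressors of germline genes, 20 S phase genes and 20 G2 and M phase genes, 0 passed the test in either direction, with median log2 fold changes of 0.02, 0.09, 0.16 and 0.05. At an adjusted p under 0.05 within day 28, where 13.9% of all tested genes rose and 16.1% fell, 13 of the 20 S phase genes rose and 0 fell, as did 11 of the 26 repressors and 4 of the 20 G2 and M phase genes, while 4 of the 19 methylation enzymes rose and 3 fell. Dnmt3b, a de novo methyltransferase, was at 74.5, 50.8, 57.1 and 37.4 CPM against 62.4, 56.5, 66.1 and 37.4 CPM (adjusted p = 0.976). Tet1, an enzyme that oxidises methylcytosine, was at 70.9, 60.7, 91.6 and 106 CPM against 42.7, 44.4, 88.1 and 97.4 CPM (adjusted p = 0.102, and within day 28 adjusted p = 1.9e-06). E2f6, a repressor of germline promoters, was at 9.34, 9.79, 12.1 and 11.3 CPM against 12.2, 11.3, 11.6 and 6.80 CPM (adjusted p = 0.747). Of 13 tested genes of germ cell specification, 0 rose and 1 (Sox17, also an endoderm gene) fell, and within day 28, 5 rose and 1 fell. Among those, Prdm1 was at 5.48, 6.63, 7.90 and 14.7 CPM against 2.21, 2.06, 6.82 and 26.1 CPM (adjusted p = 0.193), and Nanos3 was at 7.23, 4.32, 10.0 and 26.0 CPM against 4.49, 3.79, 11.4 and 19.3 CPM (adjusted p = 0.491). Neither gene was absent from the Dazl-negative cells.

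The other lists were counted with all 4 libraries, where 0.715% of all tested genes rose and 2.48% fell. They were also counted within day 28, where 13.9% rose and 16.1% fell. Of 13 reported Dazl mRNA targets 1 rose (Tex19.1) and 0 fell, and within day 28, 6 rose and 0 fell. Of 25 other RNA-binding regulators of germ cells and 16 formative and primed genes, 0 passed the test with all libraries. Within day 28, 9 of the 25 regulators rose and 0 fell, and 7 of the 16 formative and primed genes rose and 1 fell. Of 11 genes of the retinoic acid response, Crabp1 rose and Cyp26a1, Stra6 and Dhrs3 fell. These calls were lost without day 28 replicate 1 (adjusted p = 0.243, 0.583, 0.602 and 0.489) and without day 28 replicate 2 (adjusted p = 0.274, 0.321, 0.0867 and 0.571), and those of Crabp1 and Cyp26a1 also without XEN-iPS replicate 2 (adjusted p = 0.104 and 0.0566). Of 9 trophoblast genes, Krt8 and Krt18 fell. Of 19 stress genes, Atf3 and Jun fell, and within day 28, 6 rose and 6 fell. Jun did not pass the test without either day 28 library (adjusted p = 0.190 and 0.234). Of 16 fibroblast genes 0 rose and 2 fell (Fstl1 and Timp3), and within day 28, 2 rose and 9 fell. Fstl1 and Timp3 did not pass it without day 28 replicate 1 (adjusted p = 0.631 and 0.262), day 28 replicate 2 (adjusted p = 0.298 and 0.192) or XEN-iPS replicate 2 (adjusted p = 0.0696 and 0.0512). Summed over the 29 fibroblast genes listed, the level was 466, 301, 352 and 892 CPM in Dazl-positive and 739, 588, 370 and 856 CPM in Dazl-negative cells, and collagen RNA is limited by the rule.

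Some genes went further in cells with more Dazl in both day 28 libraries, and others in 1 library or in neither. After thinning to 5000 UMIs, Rhox13 stood at 15.2, 53.2 and 63.2 CPM in cells with 0, 1 and 2 or more Dazl UMIs of day 28 replicate 1 and at 24.8, 75.0 and 108 CPM in replicate 2. Rpl39l stood at 70.1, 117 and 182 CPM and at 65.0, 136 and 185 CPM. Krt18 stood at 164, 97.1 and 60.5 CPM and at 213, 67.9 and 46.2 CPM. In XEN-iPS replicate 1 Rpl39l stood at 36.0, 44.2 and 47.1 CPM and Tex19.1 at 103, 119 and 94.1 CPM. Other genes did not rise further in both libraries. Dppa3 stood at 60.9, 158 and 134 CPM in day 28 replicate 1, though at 63.7, 214 and 554 CPM in replicate 2, and Utf1 at 221, 348 and 342 CPM and at 170.2, 346 and 338 CPM. Nanog stood at 62.9, 132 and 163 CPM in replicate 1 and at 64.4, 189 and 108 CPM in replicate 2, and Zfp42 at 390, 680 and 763 CPM and at 396, 682 and 523 CPM. Ttr was lowest in the middle class, at 64.3, 23.1 and 44.7 CPM and at 92.9, 0 and 30.8 CPM. In XEN-iPS replicate 1 only 17 cells had 2 or more UMIs. These are descriptions, since the classes are cut on Dazl itself, and the highest class held 76 and 13 cells at day 28.

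**Figure D5:**
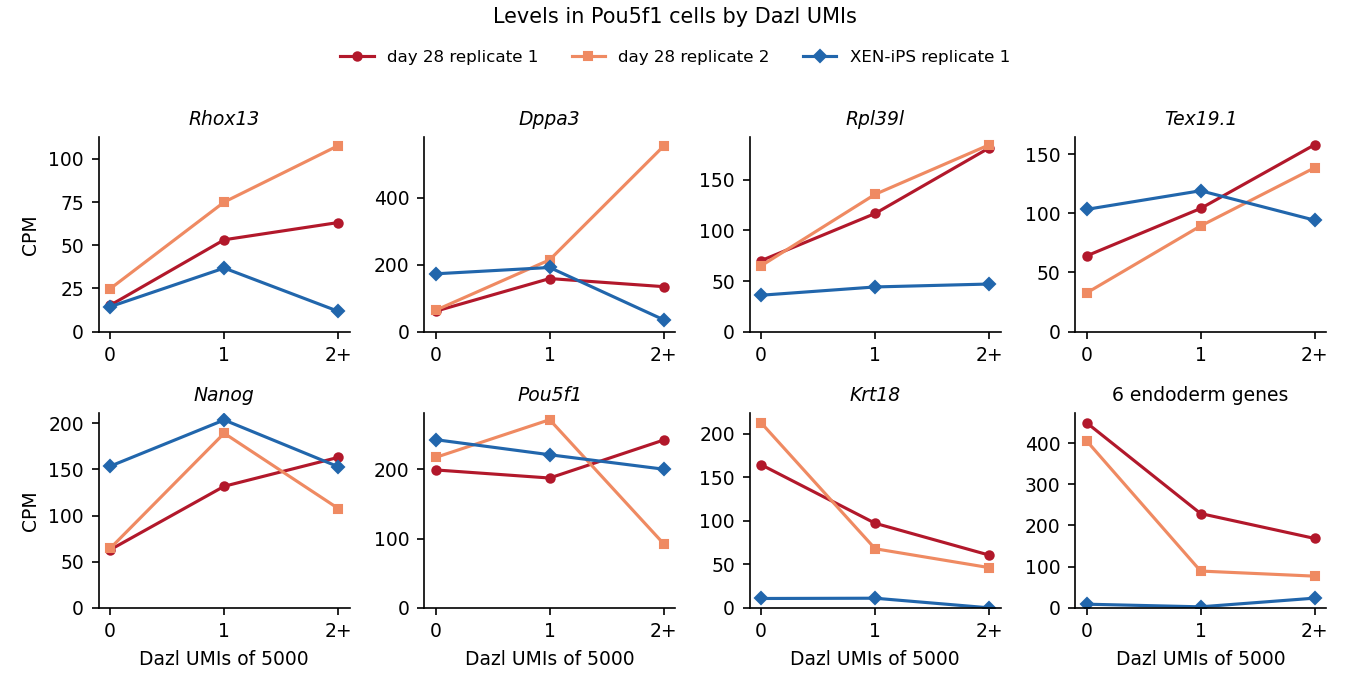
CPM (y axes) of 7 genes and of the sum of 6 endoderm genes in Pou5f1 cells with 0, 1 or 2 and more Dazl UMIs (x axes), after thinning each cell to 5000 UMIs, in 3 libraries. XEN-iPS replicate 2 had no class of 2 or more with 10 cells and is left out. Rpl39l rises from 70.1 to 182 CPM and from 65.0 to 185 CPM in the day 28 libraries, and the endoderm sum falls from 449 to 168 CPM and from 406 to 76.9 CPM.

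The Dazl-positive cells of XEN-iPS and day 28 were compared with each other, at 2 libraries against 2. A gene was called where its log2 fold change was 1 or more in size and its adjusted p was under 0.05. Of 12706 genes tested, 127 were higher (1.0%) and 280 lower (2.2%) in XEN-iPS. Without single libraries the share of tested genes called, 3.2% in all, was 1.61% (without day 28 replicate 1), 1.77% (without day 28 replicate 2), 11.1% (without XEN-iPS replicate 1) and 14.1% (without XEN-iPS replicate 2). Condition cannot be told apart from doxycycline and medium. Genes near 0 in one condition enter this test only through the other, so their levels are given without a test. Gkn2, a secreted gastrokine, was at 47.1 and 76.9 CPM in day 28 and 0.0731 and 0 CPM in XEN-iPS. Gkn1 was at 46.0 and 56.6 CPM against 0.0731 and 0 CPM, and the water channel Aqp8 at 95.9 and 66.3 CPM against 0.292 and 0 CPM. Among the genes higher in XEN-iPS, the transcription factor Tcf15 was at 139 and 123 CPM against 9.16 and 15.4 CPM (adjusted p = 0.00465) and the neurofilament gene Ina at 51.0 and 77.0 CPM against 7.83 and 4.70 CPM (adjusted p = 0.00520). The summed level of the 2-cell-like genes was 3.796 and 1.93 CPM in day 28 against 289 and 123 CPM in XEN-iPS. Acta2, a gene of the fibroblast list, was near 0 in day 28 and is likewise given without a test. It was at 6.14 and 71.4 CPM in XEN-iPS against 1.08 and 0.540 CPM. The level of 71.4 CPM was that of replicate 2, where collagen RNA was at 31.7 CPM in the Dazl-positive cells, against 2.12 CPM in replicate 1. The markers did not pass the test here. Rhox13 had a log2 fold change of -1.84 (adjusted p = 0.106), Dppa3 of 0.10 (adjusted p = 0.911) and Utf1 of 0.01 (adjusted p = 0.990).

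The same rule was applied to the Gata4 line, whose libraries had no part in choosing the cells. Matching gave 992 pairs in 8 libraries from ES to 48h. Few of the positive cells had 2 or more Dazl UMIs, from 2 of 104 (24h replicate 1) to 15 of 153 (24h replicate 2). Most thus rested on a single UMI, which free RNA can also give. The few calls here therefore cannot tell whether the day 28 differences recur in this line. Of 9042 genes tested, 1 rose (0.0111%) and 6 fell (0.0664%). Without matching 3 rose and 0 fell, in ES and 9h only 13 rose and 11 fell, and DESeq2 called 0 genes (226 at an unadjusted p under 0.05). Lefty1, an inhibitor of Nodal, rose by 0.32 ± 0.06 on the log2 scale (adjusted p = 0.00946) but was higher in 5 of 8 libraries. Of the falling genes, Nupr1 had a log2 fold change of -0.44 ± 0.10 (adjusted p = 0.0189), Lgals1 of -0.32 ± 0.06 (adjusted p = 0.00219) and Hspg2 of -0.27 ± 0.06 (adjusted p = 0.0498), and Hspg2 was higher in 1 of 8 libraries. The other falling genes were Atp5e, Fabp3 and Ftl1. Dppa3 (log2 fold change -0.10, adjusted p = 0.966) and Utf1 (-0.04, adjusted p = 0.949) did not pass the test, and Rhox13, at 7.21 CPM or less in every sum, had too few counts. Of 13 germline genes tested 0 passed. Rpl39l had a log2 fold change of 0.47 and was higher in 7 of 8 libraries (adjusted p = 0.472), and Tex19.1 one of 0.51 (adjusted p = 0.161) and was higher in 6 of 8. Fthl17e had no UMI in any of the 16 sums.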

How the data were processed

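The measurements are UMI counts per cell and gene from 10x 3′ v2 single-cell RNA-seq of 20 libraries. The authors made these whole-number counts with SEQC against mm10, removed cells with a high mitochondrial share and cells of low complexity, and deposited them as a matrix per library. The version of SEQC was not given in the sources used here. A gene without a column in a library was set to 0, and columns with the same symbol were summed. A deposited column of cluster numbers, whose origin is not stated, was not used.

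Counts were read with Python 3.11.15, numpy 2.4.6, pandas 2.3.3 and scipy 1.17.1. Each Dazl-positive cell was matched to 1 Dazl-negative cell of its library within 0.05 in log10 UMIs, deepest first, and was left out where none remained. Sums per library and class were fitted with edgeR 4.0.16 in R 4.3.3 (TMM factors, its filter on low counts, quasi-likelihood test, Benjamini-Hochberg adjustment over all tested genes). Since both classes of a library share its cells' processing, the library entered as a block, so the comparison was paired by library. DESeq2 1.42.0, the other scaling, filters and cell sets, and the omission of each library were alternatives. The steps were tested on simulated data. No doublet caller was run, and doublets were not removed. Thinning drew 5000 UMIs per cell without replacement and left out shallower cells.

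The members, gene lists and naming rule were chosen with earlier results of these data known. Genes were named as given markers or as called members of the lists. Also named were the 10 highest called genes (higher in all 4 libraries) and the 10 lowest (higher in none), at 20 CPM or more. In the other comparisons the 3 highest and 3 lowest called genes of at least 20 CPM were named. Rule genes (Dazl, Pou5f1 and the collagens) and the given markers were not tested in the Dazl comparison. Promoter windows are RefSeq's (GRCm38.p6).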

Additional observations from a re-analysis of the deposited data

Results flagged for a closer look

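The effect of Dazl differed between XEN-iPS and day 28 for 1000 of the 12447 genes tested, by the test of the difference itself (edgeR, adjusted p under 0.05). DESeq2 called 245, and edgeR called 0 when no low counts were filtered out (2341 at an unadjusted p under 0.05). The named genes with the largest differences were Acta2 (log2 difference, XEN-iPS minus day 28, 3.77), P4ha2 (2.11) and FAM134B (2.07) on the higher side and Usp26 (-1.46), Tubb3 (-1.34) and Jam2 (-1.34) on the lower side. P4ha2 fell with Dazl within day 28 (log2 fold change -1.39), and Tubb3 rose there (1.36). Most Dazl-positive cells of XEN-iPS, unlike those of day 28, held a single Dazl UMI, and the differences cannot be told apart from this. No explanation was tested for these differences.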

How the results depend on the processing

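The number of genes called between Dazl-positive and Dazl-negative cells was 398. It was 146 by DESeq2, 922 when no low counts were filtered out, 100 without depth matching, 128 with up to 3 matched cells, 209 after thinning, 1049 with 2 or more Dazl UMIs (3 libraries), 103 with 5 or more Pou5f1 UMIs, 105 without endoderm-bearing cells and 93 in the Zfp42 cells, a setting added after seeing the data. Leaving out single libraries gave between 40 and 2560. Without the replicate block edgeR called 0 genes (731 at an unadjusted p under 0.05, and 146 by DESeq2 with the block). The number of genes whose effect differed between the conditions was 245 with DESeq2, 0 with no filter (2341 at an unadjusted p under 0.05) and 2735 without matching, in place of 1000. For Dazl-positive cells of XEN-iPS against day 28, 3.2% of tested genes were called, with a replicate block 4.57% (581 genes), with no filter 7.35%, with 2 or more Dazl UMIs 10.4%, and between 1.61% and 14.1% without single libraries. In the Gata4 line it was 7, and 0 with DESeq2 (226 at an unadjusted p under 0.05), 13 with no filter, 3 without matching and 24 in ES and 9h only. The cause of these moves was not tested.

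Shares of Dazl-positive cells moved to 55.4%, 51.1% and 24.0% (day 28 replicates 1 and 2, XEN-iPS replicate 1) with 5 or more Pou5f1 UMIs. With 2 or more Dazl UMIs they were 25.2%, 25.2%, 6.24% and 0.0743% in the 4 libraries, and thinned to 5000 UMIs 15.8%, 9.77%, 6.87% and 0.568%. Without endoderm-bearing cells the log2 fold changes of Ttr (0.34), Ctsh (0.01), Fxyd3 (0.05), Gkn2 (0.11) and Cyp26a1 (0.18) turned from lower to higher, with none past the threshold. In the Zfp42 cells those of Ttr (0.30), Ctsh (0.08), Gkn2 (0.09), Cyp26a1 (0.16) and Dab2 (0.00) did so too. Dab2 is among the genes that chose these cells, so its value is set by that choice. Of the named genes, 43 kept their side of the threshold and 21 lost it without XEN-iPS replicate 2, 24 and 37 without day 28 replicate 1, and 29 and 32 without day 28 replicate 2. The 54 Dazl-positive cells of XEN-iPS replicate 2 limit its sums to 882958 UMIs.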
